A study of Mus musculus with 6 samples.

Results

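The genes described here encode the ephrins and their Eph receptors, and the semaphorins and their plexin receptors. They were chosen by symbol on the Illumina mouse bead arrays: every probe whose symbol begins with Epha, Ephb, Efna or Efnb and a number, with Sema3 to Sema7, or with Plxna to Plxnd was taken. The choice gave 101 probes of 50 genes, out of 46632 probes and 34596 symbols on the array, namely 31 probes of 14 Eph receptors, 10 probes of 8 ephrins, 44 probes of 19 semaphorins and 16 probes of 9 plexins. The platform annotation gives the same gene for 89 of the 101 probes and names no gene for the other 12.

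RNA came from embryoid bodies at day 3, which are clusters that mouse embryonic stem (ES) cells form as they begin to differentiate. There were 3 arrays labelled WT, for control E14 ES cells, and 3 labelled KO, for ES cells in which endoglin (Eng), a co-receptor for TGF-beta family ligands, was knocked out. The arrays are called WT-1 to WT-3 and KO-1 to KO-3 by their labels. All 6 shared 1 slide, and the labels give the strain C57BL/6 for each, although E14 is a line of another strain background; neither the number of knockout clones nor whether the replicates were separate cultures is stated. The p-values therefore measure the spread between these samples, which may be technical, and 3 arrays per label limit the precision.

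Ephrins are membrane-bound ligands. The A class is held by a lipid anchor, the B class spans the membrane, and both signal to Eph receptor tyrosine kinases on neighbouring cells, often causing repulsion between them. In the early embryo these pairs act at tissue boundaries, in the movement of mesoderm and in the separation of arteries from veins. Semaphorins are secreted or membrane-bound guidance cues read by plexins; most secreted class 3 members also need a neuropilin co-receptor, and Sema3e, which binds Plxnd1 directly, is an exception.

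The arrays WT-3 and KO-1 stood apart from their labels, and the results below that rest on them are given with and without them. Eng itself, measured by 1 tested probe, read 87.0, 90.6 and 44.4 on WT-1, WT-2 and WT-3, and 73.5, 45.4 and 48.7 on KO-1, KO-2 and KO-3. KO-1 thus lay near WT-1 and WT-2, and WT-3 lay near KO-2 and KO-3; the value on WT-3 was below that array's background limit of 45.3, and the other 5 were above theirs. The Eng difference, KO minus WT, was -0.28 (SE 0.21) on the log2 scale, with a limma adjusted p of 1. An exact permutation test on both sides gave p = 0.4, the smallest possible for 3 against 3 being 0.1. Without WT-3 and KO-1 it was -0.675 (SE 0.08, limma adjusted p = 0.000899), and with slide position as a block it was -0.0793 (SE 0.08, limma adjusted p = 1). WT-3 and KO-1 were left out because they read unlike their labels, a choice made with the values of Eng known. The small SE and p without them follow in part from that choice. Neither is independent evidence that Eng differs between the labels. It is not stated whether this probe lies inside the deleted part of the gene, which limits what Eng says about the labels.

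Markers of the labelled tissue were present on the arrays, and so were 2 of 4 neural markers. All 4 epiblast markers and all 7 primitive streak and mesoderm markers fixed for the check were above background on all 6 arrays. So was 1 of 6 feeder fibroblast markers, while 3 of those 6, Col1a1, Col1a2 and Lum, were above background on no array. The neural list was split. Sox1 and Neurog2 were above background on no array, whereas Pax6 (47.2 to 58.2) and Tubb3 (58.9 to 85.6) were above it on all 6. The summed intensity of the 7 streak and mesoderm markers was 16766, 16989 and 7840 on WT-1, WT-2 and WT-3 and 16500, 9039 and 9079 on KO-1, KO-2 and KO-3. The sum of 3 endothelial markers (Cdh5, Pecam1 and Tek) was 296, 258 and 158 on the WT arrays and 275, 187 and 179 on the KO arrays. Both sums were highest on WT-1, WT-2 and KO-1. Those 3 arrays held slide positions A to C, and WT-3, KO-2 and KO-3 held D to F. The epiblast sum ran the other way, with 19142, 22386 and 30135 on the WT arrays and 23622, 27020 and 27049 on the KO arrays. The sums of the other lists were 659.6 to 824 for 3 endoderm, 195 to 216 for 4 neural, 238 to 297 for 3 blood and 366 to 401 for 6 feeder fibroblast markers. The endoderm sum joined opposite orders. Sox17 read 354, 354 and 156 on the WT arrays and 355, 218 and 239 on the KO arrays. Foxa2 read 269, 311 and 525, and 273, 532 and 540. In the streak and mesoderm list, T, Mixl1, Mesp1, Etv2 and Tal1 were highest on WT-1, WT-2 and KO-1. Kdr was highest on WT-3 and KO-2, and Eomes was 1146 to 1382. Several ephrin, Eph, plexin and semaphorin genes described below moved with the streak, endothelial and epiblast sums. The part of these sums and of slide position in them was not tested. In RNA from whole embryoid bodies, fewer cells of a type and less RNA per cell cannot be told apart.

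Most of the genes had at least 1 tested probe. A probe was tested when it exceeded a background limit of 44.7 to 45.3 intensity units on at least 3 of the 6 arrays. That condition was met by 57 of the 101 probes, from 39 of the 50 genes, and by 23715 of all 46632 probes. Of the 57, 5 met it on exactly 3 arrays. A further 9 probes exceeded the limit on 1 or 2 arrays and 35 on none. The tested genes were the 12 receptors Epha1, Epha2, Epha3, Epha4, Epha6, Epha7, Epha8, Ephb1, Ephb2, Ephb3, Ephb4 and Ephb6, and the 7 ephrins Efna1, Efna3, Efna4, Efna5, Efnb1, Efnb2 and Efnb3. They also included the 15 semaphorins Sema3b, Sema3e, Sema3f, Sema4a, Sema4b, Sema4c, Sema4d, Sema4f, Sema5a, Sema5b, Sema6a, Sema6b, Sema6c, Sema6d and Sema7a, and the 5 plexins Plxna2, Plxna4, Plxnb1, Plxnb2 and Plxnd1. The other 11 genes had every probe below the limit on all 6 arrays: Epha5 and Epha10, Efna2, Sema3a, Sema3c, Sema3d and Sema4g, and Plxna1, Plxna3, Plxnb3 and Plxnc1.

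No member probe passed the test between the labels. Of the 57 tested probes, 0 were higher and 0 lower under the KO label at a limma adjusted p under 0.05, against 0% of all 23715 probes tested in either direction. The smallest adjusted p was 1, and the label differences ran from -0.35 to 0.35 on the log2 scale (SE 0.06 to 0.28), with a median of -0.02 for the members and 0.002 for all probes. At an unadjusted p under 0.05 there was 1 member probe (1.75%), against 2.34% of all probes. The 3 arrays of one label lay wholly on one side of the other for 2 of 57 member probes (3.51%), against 7.2% of all probes; in both the KO arrays were below, which held for 3.47% of all probes. By family, the median difference was 0.01 over 17 Eph receptor probes, -0.07 over 8 ephrin probes, 0.004 over 23 semaphorin probes and -0.003 over 9 plexin probes.

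The number of member probes at least 1.5-fold apart did not follow the labels. Within the labels, WT-1 and WT-2 were that far apart at 1 of the 57 probes, and KO-2 and KO-3 at 0, whereas WT-3 was that far from WT-1 and WT-2 at 9 and 8, and KO-1 from KO-2 and KO-3 at 9 and 7. Across the labels, the counts were 0 and 1 for KO-1 against WT-1 and WT-2, and 0 and 1 for WT-3 against KO-2 and KO-3. They were 8 and 7 for WT-1 against KO-2 and KO-3, 8 and 7 for WT-2 against the same arrays, and 8 for WT-3 against KO-1. Over all probes, counted at 2-fold, the pairs split in the same way. WT-3 was that far from WT-1 and WT-2 at 122 and 112 probes, and KO-1 from KO-2 and KO-3 at 99 and 92. KO-1 was that far from WT-1 and WT-2 at 0 and 2, and WT-3 from KO-2 and KO-3 at 0 and 0. The split is thus not particular to the members, and no share of all probes at 1.5-fold is given.

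The member genes with a wide range over the arrays fell into a small number of orders. The highest array was at least 1.5 times the lowest for 16 of 57 member probes (28.1%), against 9.74% of all tested probes; the ratio was 1.51 for the last of the 16 (an Epha1 probe) and 1.44 for the next one below (a Plxnd1 probe). For 7 of the 16 (43.8%), WT-1, WT-2 and KO-1 were the 3 highest arrays. For another 6 of the 16 (37.5%), the same 3 arrays were the lowest. Among all tested probes with such a ratio these orders were also the most common, at 34.6% and 30.3%. Over all 57, the counts were 12 (21.1%) and 16 (28.1%), against 13.4% and 14% of all tested probes. These are orders of the arrays, not groups of the study, and no test was made on them.

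**Figure D1:**
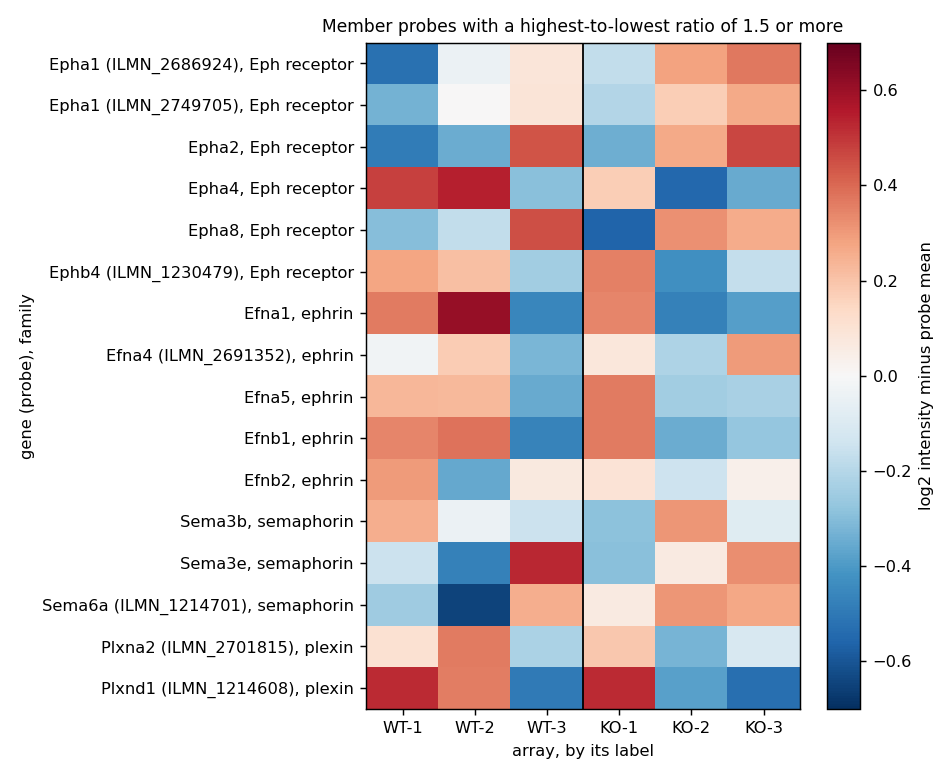
Log2 intensity of each of the 16 member probes with a highest-to-lowest ratio of at least 1.5, minus the probe's own mean over 6 arrays; rows are probes with their family, columns are arrays by label, and the line separates WT from KO. Red is above and blue below the probe's mean, and in 13 of the 16 rows the 3 highest arrays are either WT-1, WT-2 and KO-1 or WT-3, KO-2 and KO-3.

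Among the A-class ephrins, Efna1, a ligand of Epha2 first found in endothelial cells, had the widest range. Its intensity was 198, 235 and 112 on WT-1, WT-2 and WT-3 and 194, 111 and 117 on KO-1, KO-2 and KO-3. The high arrays were WT-1, WT-2 and KO-1, so the labels overlapped. The label difference was -0.30 (SE 0.26, limma adjusted p = 1), and -0.80 (SE 0.09, adjusted p = 0.000803) without WT-3 and KO-1.

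Efna5, a ligand known for guiding retinal axons, took the same order: 493, 491 and 328 on the WT arrays and 539, 354 and 357 on the KO arrays. Its label difference was -0.07 (SE 0.20), and -0.44 (SE 0.08, limma adjusted p = 0.00917) without the 2 arrays. A second Efna5 probe was above the limit on fewer than 3 arrays and was not tested. Efna4 did not take this order. Its 2 probes read 338, 341 and 289 against 314, 276 and 356, and 233, 268 and 190 against 251, 205 and 291, with KO-3 the highest array on both. The label differences were -0.04 (SE 0.10) and 0.10 (SE 0.14), and without WT-3 and KO-1 they were -0.11 (SE 0.11) and -0.03 (SE 0.14). Efna3 ranged from 75.6 to 99.95 over the 6 arrays, with differences of -0.07 (SE 0.09) over all arrays and -0.08 (SE 0.09) without the 2.

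The B-class ligands differed among themselves in how they varied. Efnb1, an X-linked ligand whose loss disturbs skeletal patterning, read 327, 337 and 187 on WT-1, WT-2 and WT-3, and 333, 203 and 215 on KO-1, KO-2 and KO-3. WT-1, WT-2 and KO-1 were high and WT-3, KO-2 and KO-3 low, with no value between 215 and 327. The label difference of Efnb1 was -0.16 (SE 0.24, limma adjusted p = 1), and -0.61 (SE 0.08, adjusted p = 0.0016) without the 2 arrays.

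Efnb2, the ligand that marks arteries, read 155, 97.9 and 132 on the WT arrays and 134, 114 and 129 on the KO arrays. WT-1 was the highest and WT-2 the lowest, so the spread lay between the arrays that were alike for Efnb1. The label difference was -0.01 (SE 0.13), and -0.03 (SE 0.15) without WT-3 and KO-1. Efnb3 stayed near the background limit, at 42.7 to 54.8, with differences of -0.08 (SE 0.08) and, without the 2 arrays, -0.14 (SE 0.09).

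Ephb4, the venous receptor that binds Efnb2, was measured by 2 probes. The brighter (ILMN_2777884) read 1944, 2001 and 1699 on the WT arrays and 2009, 1746 and 1782 on the KO arrays. The dimmer (ILMN_1230479) read 301, 286 and 209, and 317, 184 and 221. Both put KO-1 highest and WT-3 with KO-2 and KO-3. The label differences were -0.03 (SE 0.09) and -0.15 (SE 0.19). Without the 2 arrays they were -0.16 (SE 0.08, limma adjusted p = 0.33) and -0.49 (SE 0.10, adjusted p = 0.0145), so the probes differed in size and in the call. Of the other B-class receptors, Ephb1 ranged from 47.9 to 66.3 on its brighter probe, Ephb2 from 94.1 to 126 and Ephb6 from 89.6 to 97.6. Ephb3 lay between 39.2 and 48.3, at the limit.

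Among the A-class receptors, Epha4, which has roles in somite boundaries and axon guidance, read 81.4, 85.2 and 47.7 on WT-1, WT-2 and WT-3 and 65.7, 39.9 and 45.7 on KO-1, KO-2 and KO-3. Its highest arrays were WT-2, WT-1 and KO-1, and KO-2 lay below the background limit. The label difference of -0.35 (SE 0.18, limma adjusted p = 1) was the lowest among the members, and without the 2 arrays it was -0.69 (SE 0.08, adjusted p = 0.000988).

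Epha2, a receptor of Efna1 that is expressed in ES cells, ran the other way. It read 141, 155 and 268 on the WT arrays and 156, 237 and 273 on the KO arrays, with KO-3, WT-3 and KO-2 high. The label difference was 0.23 (SE 0.25, limma adjusted p = 1), and 0.70 (SE 0.09, adjusted p = 0.00174) without WT-3 and KO-1.

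Epha1 was the A-class receptor with 3 tested probes, and the same 3 arrays were highest on all of them. The brightest (ILMN_2633996) read 560.2, 624 and 749 on the WT arrays and 559, 783 and 760 on the KO arrays. The second (ILMN_2749705) read 256, 324 and 343, and 280, 364 and 387, and the dimmest (ILMN_2686924) read 147, 206 and 225, and 188, 257 and 274. KO-2, KO-3 and WT-3 were the 3 highest arrays on each, with WT-2 next. Label differences were 0.11 (SE 0.15), 0.15 (SE 0.14) and 0.29 (SE 0.17) in that order. Without the 2 arrays they were 0.37 (SE 0.09), 0.36 (SE 0.11) and 0.55 (SE 0.12), with limma adjusted p-values of 0.0322, 0.0902 and 0.0293, so the probes differed in the call.

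Epha8, known from the midbrain, read 103, 112 and 173 on the WT arrays and 85.7, 158 and 152 on the KO arrays. WT-3 was the highest and KO-1 the lowest, and the label means were nearly equal (0.02, SE 0.23). Without those 2 arrays the difference was 0.45 (SE 0.08, limma adjusted p = 0.0114). Epha7 was close to background, with 45.4, 38.9 and 40.6 against 50.5, 45.2 and 48.1 and a difference of 0.14 (SE 0.07, adjusted p = 1), or 0.10 (SE 0.09, adjusted p = 0.63) without the 2 arrays. Epha3 (49.4 to 53.0) and Epha6 (41.7 to 50.9) lay at or just above the limit on their tested probes.

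**Figure D2:**
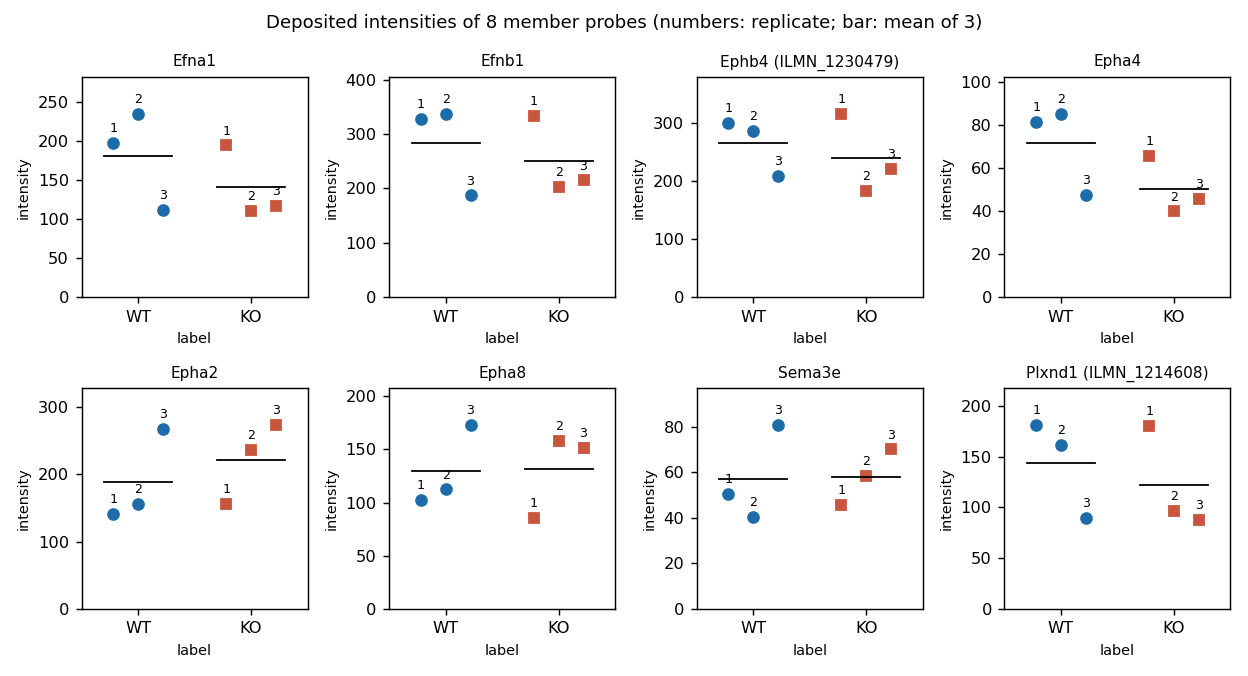
Deposited intensity (linear axis from 0) of 8 member probes, chosen after their values were seen, on the 3 WT arrays (circles) and 3 KO arrays (squares), with the replicate number above each point and a bar at the mean of 3. In the upper row and for Plxnd1, replicate 3 of WT lies with replicates 2 and 3 of KO, and replicate 1 of KO with replicates 1 and 2 of WT; Epha2, Epha8 and Sema3e show the opposite order.

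Plxnd1, the plexin that patterns growing vessels, was measured by 3 tested probes. The brightest (ILMN_1214608) read 181, 161 and 89.3 on the WT arrays and 180, 96.6 and 87.4 on the KO arrays. The second (ILMN_1213050) read 136, 129 and 96.5, and 130, 94.1 and 95.5. On both, WT-1, KO-1 and WT-2 were high and did not overlap with the other 3. The remaining one (ILMN_3162354) varied little, with 69.7, 72.0 and 64.9, and 70.4, 67.4 and 68.0. The same 3 arrays were highest on it. Label differences were -0.22 (SE 0.28), -0.15 (SE 0.14) and -0.003 (SE 0.06). Without WT-3 and KO-1 they were -0.76 (SE 0.09, limma adjusted p = 0.000787), -0.40 (SE 0.08, adjusted p = 0.0165) and -0.05 (SE 0.08, adjusted p = 0.824).

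Sema3e, the ligand of Plxnd1, read 50.4, 40.2 and 80.6 on the WT arrays and 45.7, 58.3 and 69.9 on the KO arrays. WT-3, KO-3 and KO-2 were its highest arrays, the reverse of its receptor, and WT-2 lay below the background limit. The label difference was 0.04 (SE 0.18), and 0.35 (SE 0.10, limma adjusted p = 0.08) without the 2 arrays. The other 3 Sema3e probes were not above the limit on at least 3 arrays.

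Plxna2, a receptor for class 3 and class 6 semaphorins, read 649, 774 and 518 on the WT arrays and 686, 481 and 558 on the KO arrays with its brighter probe (ILMN_2701815). WT-2, KO-1 and WT-1 were the highest. Its label difference was -0.16 (SE 0.16), and -0.44 (SE 0.11, limma adjusted p = 0.0403) without the 2 arrays. The dimmer probe (ILMN_2482866) held 57.0 to 62.2, with WT-3, KO-2 and KO-3 the highest. Its label difference was 0.03 (SE 0.06), and 0.08 (SE 0.08, limma adjusted p = 0.689) without the 2 arrays. The Plxna2 probes thus differed in order, in sign and in the call. Plxnb2, a receptor of class 4 semaphorins, read 281, 268 and 323 on the WT arrays and 305, 338 and 330 on the KO arrays. Its difference of 0.15 (SE 0.08) was 0.26 (SE 0.08, adjusted p = 0.1) without them. Plxnb1, a receptor of Sema4d, ranged from 95.7 to 115, and Plxna4 lay at the limit.

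Among the semaphorins, Sema6a, a membrane-bound ligand of Plxna2 and Plxna4, had the widest label difference, with 101, 76.3 and 143 on the WT arrays and 125, 148 and 145 on the KO arrays (ILMN_1214701). WT-3 lay with the KO arrays, and WT-2 was the lowest. The label difference of 0.35 (SE 0.17, limma adjusted p = 1) was the highest among the members, and without WT-3 and KO-1 it was 0.61 (SE 0.11, adjusted p = 0.00787). A second probe (ILMN_2705946) had KO-2, KO-3 and WT-3 highest as well, at 58.1 to 80.4, with 0.27 (SE 0.08, adjusted p = 0.0949) without the 2 arrays. The remaining 2 tested Sema6a probes were near the limit, at 43.7 to 57.4 and 44.1 to 49.3.

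Sema3f, a secreted ligand read through Nrp2, was 514, 556 and 397 on the WT arrays and 557, 442 and 445 on the KO arrays, with KO-1, WT-2 and WT-1 high. Its difference was -0.02 (SE 0.14), and -0.26 (SE 0.08, limma adjusted p = 0.113) without the 2 arrays. Sema4b read 818, 872 and 963 against 851, 1051 and 951, and Sema4a, a class 4 ligand, read 165, 206 and 232 against 191, 215 and 209. For both of these KO-2, KO-3 and WT-3 were the highest, and the differences without the 2 arrays, 0.24 (SE 0.09) and 0.18 (SE 0.10), did not pass (adjusted p of 0.167 and 0.4).

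The member probe with the smallest p, 0.0389 before adjustment, belonged to Sema6c (ILMN_2707604). It read 55.9, 54.4 and 51.3 on the WT arrays and 44.6, 49.8 and 42.1 on the KO arrays, with no overlap, a difference of -0.17 (SE 0.07) and a limma adjusted p of 1. Without WT-3 and KO-1 the difference was -0.18 (SE 0.09, limma adjusted p = 0.302). Of the 3 KO arrays, 2 lay below the background limit. The brighter Sema6c probe (ILMN_2469523) ran from 158 to 195 and differed by 0.07 (SE 0.08), or 0.11 (SE 0.09) without the 2 arrays, so the probes differ in sign. The other probe without overlap was one of Sema5a (ILMN_1227400), at 47.5 to 49.6 on the WT arrays and 44.2 to 45.9 on the KO arrays (-0.08, SE 0.06, and -0.09, SE 0.08, without the 2 arrays); it was chosen after its values were seen. Sema3b, a secreted class 3 ligand, had a wide range in another order, with 73.1, 59.8 and 55.4 on the WT arrays and 50.2, 76.1 and 57.9 on the KO arrays. KO-2 was the highest and KO-1 the lowest, and the label difference was -0.03 (SE 0.12), or 0.006 (SE 0.11) without the 2 arrays. The 26 tested probes not selected by the naming rule had label differences of -0.08 to 0.07 and highest-to-lowest ratios of 1.07 to 1.58.

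WT-3 and KO-1 were set aside for how they read, a choice made with the values known. Without them 13 of the 57 member probes passed (22.8%), 5 higher (8.77%) and 8 lower (14%) under the KO label. Among all 23715 tested probes the shares were 5.84% in all, 2.81% higher and 3.03% lower. The 5 belonged to Epha1 (2 probes), Epha2, Epha8 and Sema6a, and the 8 to Epha4, Ephb4, Efna1, Efna5, Efnb1, Plxna2 and Plxnd1 (2 probes). By family these were 6 of 17 Eph receptor probes, 3 of 8 ephrin probes, 1 of 23 semaphorin probes and 3 of 9 plexin probes. Because the values decided which arrays to omit, these counts are not independent evidence that the labels differ. The arrays that remain are WT-1 and WT-2 at slide positions A and C and KO-2 and KO-3 at D and F, so label and position cannot be told apart in any of these calls. With position as a block over all 6 arrays, 0 member probes passed. Among the probes called without the 2 arrays, the label differences of Epha1 (ILMN_2633996), Epha2, Epha8, Ephb4 (ILMN_1230479), Efna5, Efnb1 and Plxnd1 (ILMN_1214608) took the opposite sign. That block removes the split by which these probes were called. It leaves each label difference resting on KO-1 against WT-1 and WT-2 and on WT-3 against KO-2 and KO-3. The sign changes therefore cannot decide whether the labels differ.

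**Figure D3:**
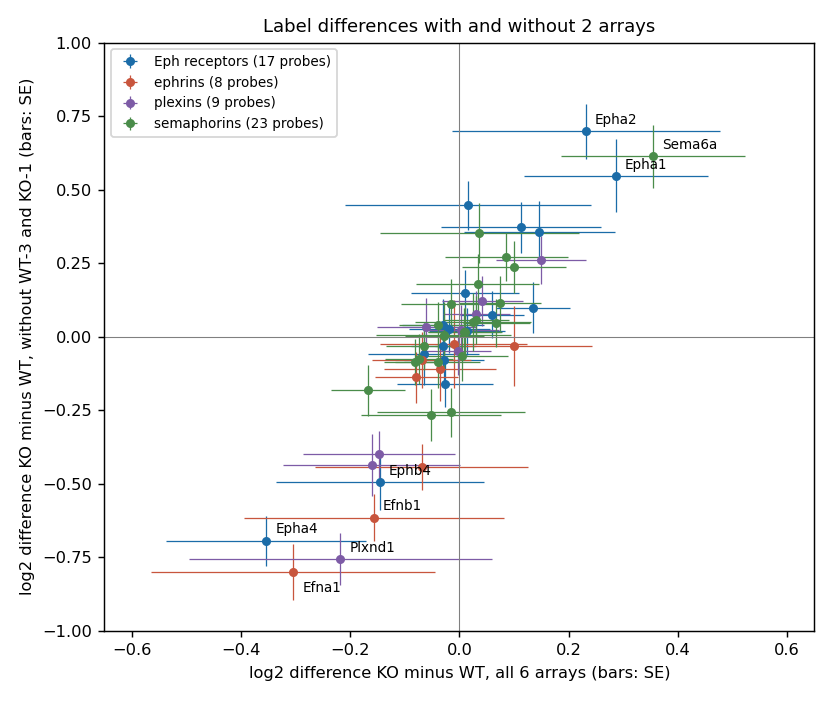
Log2 difference KO minus WT of the 57 tested member probes, fitted over all 6 arrays (x axis) and without WT-3 and KO-1 (y axis), with bars of 1 SE and colours by family; probes beyond 0.45 on the y axis are named. The cloud is steeper than the diagonal: the all-array differences stay between -0.35 and 0.35 while those without the 2 arrays reach -0.80 and 0.70.

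The promoters of 4 of these genes are shown because Efnb1 with Ephb4, a B-class ligand and a B-class receptor, and Plxnd1 were high on the same arrays, and Epha2 on the opposite ones. RefSeq promoters (GRCm38.p6, from 250 bases before to 50 bases after the gene start) were found for 44 of the 50 genes. They were searched on both strands for 5 motifs: GGCGCC, a GC-rich element bound by BMP Smads; GTCTAGAC, the Smad palindrome; AGGTGTGA, a T-box element; CTTTGAT, a Tcf/Lef core; and AGATAA, an element that zinc-finger factors of blood and endoderm bind. No motif contains another. GGCGCC was present in 13 of the 58 member promoters (22.4%), from 13 genes, and in 11.9% of all 32851 promoters. The genes were Efna1, Efna2, Efna3, Efnb2, Epha1, Ephb4, Ephb6, Plxna2, Sema3c, Sema4b, Sema5b, Sema6b and Sema6c. AGATAA was present in 2 (3.45%, against 11.2%), AGGTGTGA in 1 (1.72%, against 1.28%), and GTCTAGAC and CTTTGAT in 0 (against 0.213% and 3.73%). A match is a description of letters and names no site. Capitals mark the 1 match in the 4 sequences, GGCGCC in Ephb4.
Efnb1, chrX:99135811-99136110, plus strand: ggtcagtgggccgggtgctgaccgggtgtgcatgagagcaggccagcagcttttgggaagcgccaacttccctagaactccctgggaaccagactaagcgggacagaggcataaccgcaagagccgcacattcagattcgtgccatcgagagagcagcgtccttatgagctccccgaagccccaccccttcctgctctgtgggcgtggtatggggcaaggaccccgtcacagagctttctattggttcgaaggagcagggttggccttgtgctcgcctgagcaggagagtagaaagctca
Ephb4, chr5:137349859-137350158, plus strand: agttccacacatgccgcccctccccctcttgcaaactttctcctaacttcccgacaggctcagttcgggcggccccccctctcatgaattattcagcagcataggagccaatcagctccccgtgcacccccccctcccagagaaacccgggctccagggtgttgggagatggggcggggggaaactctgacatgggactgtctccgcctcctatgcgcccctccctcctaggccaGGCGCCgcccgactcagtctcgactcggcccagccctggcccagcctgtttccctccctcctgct
Plxnd1, chr6:115994956-115995255, minus strand: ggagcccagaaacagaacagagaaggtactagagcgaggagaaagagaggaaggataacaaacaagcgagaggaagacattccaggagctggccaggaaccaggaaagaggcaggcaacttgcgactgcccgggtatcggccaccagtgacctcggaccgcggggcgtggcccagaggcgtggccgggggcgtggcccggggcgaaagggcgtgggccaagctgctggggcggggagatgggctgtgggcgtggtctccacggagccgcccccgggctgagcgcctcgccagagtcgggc
Epha2, chr4:141300971-141301270, plus strand: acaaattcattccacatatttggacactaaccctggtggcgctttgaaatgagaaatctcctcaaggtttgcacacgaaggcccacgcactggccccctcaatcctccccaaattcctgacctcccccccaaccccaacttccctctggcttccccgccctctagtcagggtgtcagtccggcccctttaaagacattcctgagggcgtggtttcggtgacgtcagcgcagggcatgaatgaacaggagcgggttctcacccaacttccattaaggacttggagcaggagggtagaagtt

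Co-receptors and effectors of these pathways were read from a list of 54 genes, of which 48 had a tested probe (69 probes). Under the labels 0 of the 69 were higher and 0 lower at a limma adjusted p under 0.05, with a median difference of -0.03, and 1 had an unadjusted p under 0.05. Without WT-3 and KO-1, 10 of 69 passed (14.5%), 1 higher and 9 lower, against 5.84% of all probes, 2.81% higher and 3.03% lower.

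The neuropilins had the widest ranges of the list. Nrp1, a co-receptor of class 3 semaphorins and of VEGF, read 501, 445 and 66.8 on WT-1, WT-2 and WT-3 and 483, 57.8 and 70.7 on KO-1, KO-2 and KO-3 (ILMN_1237197). A second probe (ILMN_2669912) read 287, 281 and 54.4, and 267, 57.3 and 53.3, and the last (ILMN_1247094) read 88.7, 69.5 and 50.3, and 109, 45.3 and 49.6. All 3 were high on WT-1, WT-2 and KO-1 with no overlap with the other arrays. The label differences were -0.84 (SE 0.84), -0.68 (SE 0.65) and -0.07 (SE 0.25), and without the 2 arrays -2.51 (SE 0.10), -1.97 (SE 0.08) and -0.53 (SE 0.10), with limma adjusted p-values of 5.71e-07, 6.08e-07 and 0.0133.

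Nrp2, the co-receptor of Sema3f, read 274, 230.3 and 73.5 on the WT arrays and 258, 85.6 and 83.7 on the KO arrays (ILMN_2480957), the same order. The difference was -0.385 (SE 0.49), and -1.35 (SE 0.09, limma adjusted p = 1.93e-05) without the 2 arrays. Its other probe (ILMN_2730813) ranged from 49.2 to 57.6 and did not take this order. Mical1, a redox enzyme that acts on actin downstream of plexins, read 105, 100.02 and 59.1 on the WT arrays and 115, 79.2 and 61.2 on the KO arrays (ILMN_1215951). Its second probe (ILMN_1225077) read 64.1, 63.6 and 48.0, and 67.7, 43.4 and 38.8. Without the 2 arrays both Mical1 probes were lower by the fit, at -0.44 (SE 0.10, adjusted p = 0.0325) and -0.44 (SE 0.08, adjusted p = 0.012).

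**Figure D4:**
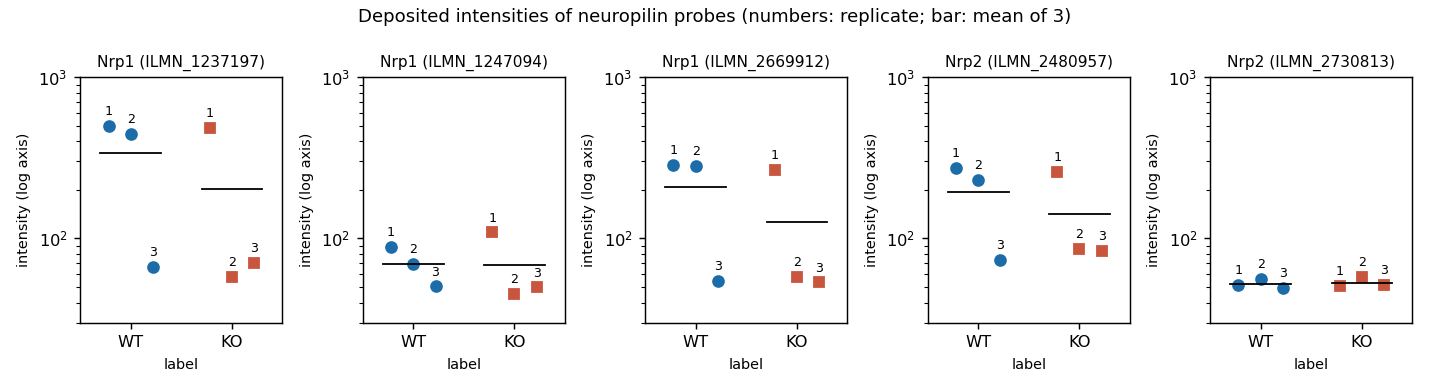
Deposited intensity on a log axis of the 5 tested neuropilin probes, on the 3 WT arrays (circles) and 3 KO arrays (squares), with replicate numbers and a bar at the mean of 3. On 3 Nrp1 probes and 1 Nrp2 probe, WT-1, WT-2 and KO-1 lie above WT-3, KO-2 and KO-3; the remaining Nrp2 probe stays between 49.2 and 57.6.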

How the data were processed

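Embryoid body RNA was measured on 6 Illumina arrays, grouped by the sample titles (3 WT, 3 KO). Per the labels' protocols, Trizol extraction was followed by column clean-up and DNase, and RNA was amplified to biotinylated cRNA. The authors deposited a linear intensity for each probe of each array. Their normalization method was not given in the sources used here, but all columns have the same highest value (32123) and a median near 45.1. The deposited unnormalized table supplied the gene symbols; 12 value columns in it are headed by numbers matching no label and stayed out.

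Background was corrected by normexp with an offset of 50 and log2 values were analysed in limma 3.58.1 (R 4.3.3), with no further quantile step because the columns already share a distribution. The offset shrinks differences of dim probes. The background limit is the 95th percentile of a normal curve at the array's peak intensity, its SD taken from the values under the peak. It stands in for detection p-values. Labels were compared with lmFit and eBayes on every tested probe (two-sided, Benjamini-Hochberg over 23715 probes, threshold 0.05), and the steps were tested on simulated data. The simulated noise was independent between arrays. It held no split of the arrays across the labels, so it does not show how the steps behave with one.

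The members and lists were chosen with earlier results of these data known. The naming rule took, per family, the 2 smallest p-values and 3 highest means, the 12 widest highest-to-lowest ratios, every other tested probe of those genes, and 6 probes of the co-receptor and effector list. Other genes were named through the platform annotation and, where it gave none, the symbol column. Alternatives covered correction, normalization, filter, probe choice, variance model, array weights, the replicate block and arrays left out. A block for slide position, and leaving out WT-3 with KO-1, were added after the data were seen.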

Additional observations from a re-analysis of the deposited data

How the results depend on the processing

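The count of member probes, of all probes and of co-receptor and effector probes called between the labels was 0 for each alternative, apart from leaving out WT-3 and KO-1 together, chosen after the data were seen; that gave 13, 1384 and 10. The Eng difference was then -0.675 with a call. Each array left out in turn gave 0 calls for all these counts and an Eng difference of -0.521 to -0.145; the slide position block took it to -0.0793 without a call. The replicate block gave 0 calls for each count as well; the deviations of same-numbered arrays correlated at 0.569, -0.251 and 0.493, so the numbers were not taken as pairing. The 31 named member probes kept their sign with no background correction, background peak subtraction, a further quantile step, no filter, trend and robust moderation and the replicate block, and so did the 24 and 20 of them left by the stricter filter and by 1 probe per gene. Array weights turned Sema6a (ILMN_1215472) to 0.0261, and the omission of 2 arrays turned it to 0.11 and Efna4 (ILMN_2691352) to -0.0312, without a call; the cause was not tested. With slide position (A, B, C or D, E, F) as a block, also chosen after the data were seen, 14 uncalled differences changed sign: Epha1 -0.0173 (ILMN_2633996), Epha2 -0.00163, Epha8 -0.20, Ephb4 0.0276 and 0.0401, Efna4 0.000915 (ILMN_1217493), Efna5 0.12, Efnb1 0.0728, Plxnd1 0.0508 (ILMN_1214608) and 0.0194 (ILMN_3162354), Sema3e -0.12, Sema3f 0.10, Sema4a -0.0395 and Sema6a -0.00677 (ILMN_2705946). With this block a label difference rests on KO-1 against WT-1 and WT-2 and on WT-3 against KO-2 and KO-3. The changed signs therefore cannot decide whether the labels differ. Leaving out 1 array at a time also changed the sign of some differences that were between -0.15 and 0.10 over all 6 arrays. Their ranges were -0.12 to 0.25 for Epha8, -0.34 to 0.0125 and -0.10 to 0.0195 for Ephb4, -0.12 to 0.0507 and -0.0196 to 0.22 for Efna4, -0.26 to 0.0292 for Efna5, -0.0349 to 0.0209 for Plxnd1 (ILMN_3162354), -0.12 to 0.24 for Sema3e, -0.15 to 0.0787 for Sema3f, -0.0880 to 0.13 for Sema4a, and -0.0731 to 0.0672 and -0.000487 to 0.0542 for Sema6a. Probes near the background limit, such as those of Epha7, Efnb3 and Sema6c, are measured poorly.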
